A study of Homo sapiens with 18 samples.

Results

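The comparison set RNA from wild-type MDA-MB-231 cells treated with olaparib directly against RNA from the same cells transfected with an siRNA against PARP1 (siPARP1), with no control library shared between the 2 sides. MDA-MB-231 is a long-used cell line from a triple-negative human breast cancer and has mesenchymal character. The olaparib group received 2 µM olaparib for 24 h and the siPARP1 group 100 pM siRNA for 48 h with a lipid transfection reagent, and each group had 3 libraries of 18 in the series. Genes with at least 1 FPKM (sequenced fragments scaled to transcript length and to the library's total) in at least 3 of these 6 libraries were compared, which left 14803 of the 62830 genes listed. Values of 3 wild-type libraries labelled with no agent, called untreated here, are set beside the results as a baseline. MDA-MB-231 cells in which TRIM27, a ubiquitin ligase, had been knocked out, with 3 libraries each under the same olaparib dose and time, under the same siRNA and untreated, served as a second pair of groups. The agent, the exposure time and the delivery differed together between olaparib and siPARP1 cells, so their parts in any difference cannot be told apart. The protocol mentions DMSO and a non-targeting siRNA as controls, but no library analysed here is labelled as either, and whether the knockout cells were 1 clone is not given in the labels.

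PARP1 is a nuclear enzyme that senses DNA breaks and builds chains of ADP-ribose on itself and on neighbouring proteins, which opens chromatin and recruits repair factors. Olaparib occupies the NAD pocket of PARP1 and PARP2, which blocks chain synthesis and holds the proteins on damaged DNA, and the trapped complexes stall replication forks. An siRNA removes the PARP1 transcript and, with time, the protein, without occupying the pocket of PARP2 or of the remaining PARP1. The study's design concerns TRIM27, PARP1 and PAX6 in invasion and metastasis.

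The 6 libraries were similar in summed FPKM, which is scaled to each library's total, but not in depth. Summed FPKM ran from 836103 to 910313, and 14376 to 14584 genes reached 1 FPKM. Read totals were not used here. The steps between low values put the depth of the siPARP1 libraries at 0.798 to 0.866 times that of the first olaparib library. The olaparib libraries lay at 1.00 to 1.32 times, so depth differed together with treatment, and its part was not tested. Across genes, libraries of 1 group correlated at 0.983 to 0.988 and libraries of different groups at 0.948 to 0.951. The mitochondrial genome supplied 24.8 ± 0.804% of annotated FPKM under olaparib and 25.8 ± 0.338% under siPARP1 (SD, n = 3 each, exact permutation test, two-sided p = 0.1, the smallest p that 3 against 3 libraries allow). All 7 genes on a list that defines the line passed the filter, among them VIM, AXL and CAV1. None of 8 leukocyte markers passed it, and their summed level was 0.841 to 1.09 FPKM under olaparib and 0.219 to 0.498 FPKM under siPARP1, with 2 of the 8 at 0 in every library. Of 7 fibroblast markers 2 passed, and of 9 luminal markers 3, while the oestrogen receptor gene ESR1 and the progesterone receptor gene PGR did not. The labels do not state that the 3 replicates of a group were grown separately. A p-value of the gene tests rests on the spread within groups, estimated over all 18 libraries, and that spread may be technical.

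The targeted transcript was checked first. PARP1 had 36.7, 41.9 and 37.9 FPKM under olaparib, against 9.94, 10.6 and 11.7 FPKM under siPARP1. Its log2 difference, olaparib minus siPARP1 on the log2(FPKM + 1) scale, was 1.76 ± 0.068 (SE; limma, adjusted p = 3.90e-11), and the groups did not overlap. Untreated cells had 59.1, 54.5 and 54.9 FPKM, so siPARP1 cells held 19.1% of the untreated level and olaparib cells 69.1%. PARP1 was therefore below untreated cells under both agents, with a log2 difference from untreated of -0.52 for olaparib and -2.29 for siPARP1. In the deposited transcript table, PARP1 transcripts that could be assigned to the gene summed to 7.45 FPKM under olaparib and 5.55 FPKM under siPARP1, a small part of the gene value, and on those sums the difference was 0.42 (adjusted p = 0.472).

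PARP2, the second target of olaparib and not of the siRNA, had 13.8, 13.6 and 13.95 FPKM under olaparib, against 17.4, 19.3 and 18.6 FPKM under siPARP1 and was lower under olaparib (log2 -0.39 ± 0.067, adjusted p = 1.86e-04). TRIM27 had 1.27, 1.502 and 1.41 FPKM under olaparib, against 1.78, 1.62 and 2.44 FPKM under siPARP1, a difference of -0.29 ± 0.095 (adjusted p = 0.0191) that lost its call without olaparib library 1 (adjusted p = 0.0699), without siPARP1 library 3 (0.102) and in a fit of the 6 compared libraries alone (0.0869). PAX6, a homeobox transcription factor, did not pass the filter. It had 0.135, 0.337 and 0.109 FPKM under olaparib, against 0.296, 0.609 and 0.373 FPKM under siPARP1, and in a fit without the filter the difference of -0.26 ± 0.12 was not called (adjusted p = 0.137). Among the 25 of 27 genes for PARP enzymes, ADP-ribose hydrolases and NAD supply that were tested, 9 were higher and 11 lower under olaparib. NMNAT1, which makes NAD in the nucleus, averaged 7.19 ± 0.103 FPKM under olaparib and 3.11 ± 0.0619 FPKM under siPARP1 (SD, n = 3 each) and was the next largest rise after PARP1. PARP14, an interferon-inducible member, averaged 6.20 FPKM under olaparib and 9.61 FPKM under siPARP1. NAMPT, the entry enzyme of NAD salvage, had 16.1, 15.8 and 15.97 FPKM under olaparib, against 27.1, 24.8 and 20.4 FPKM under siPARP1, and its call was lost on transcript sums (log2 -1.15, adjusted p = 0.168).

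More genes separated the 2 agents than did not. At an adjusted p under 0.05, 3537 genes (23.9%) were higher and 4373 (29.5%) lower under olaparib than under siPARP1, together 53.4% of the 14803 tested. Differences of at least 2-fold were found for 543 of the higher and 361 of the lower genes. The median difference over all genes tested was -0.057, and under a median-of-ratios scaling it was -0.011. The share of calls that were higher was 44.7% and became 51.0% under that scaling and 50.6% with each library rescaled over nuclear annotated genes. The libraries of the groups did not overlap for 9075 genes (61.3%). The filter was passed through the olaparib libraries alone by 341 genes and through the siPARP1 libraries alone by 205, and these had to differ. Members of the gene groups given later also passed in this way, among them IFI44, OAS1, IL24, CD274, CHAC1, MMP1 and S100A4. The counts of their groups include such members and are descriptions. Against untreated cells, 46.6% of genes were called under olaparib (3842 higher, 26%, and 3050 lower, 20.6%) and 53.1% under siPARP1 (4555 higher, 30.8%, and 3307 lower, 22.3%). Both of these sets use the same 3 untreated libraries, and the counts of gene groups given later stand against all of these shares. In bulk RNA, fewer cells with a transcript and less of it per cell cannot be told apart.

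**Figure D1:**
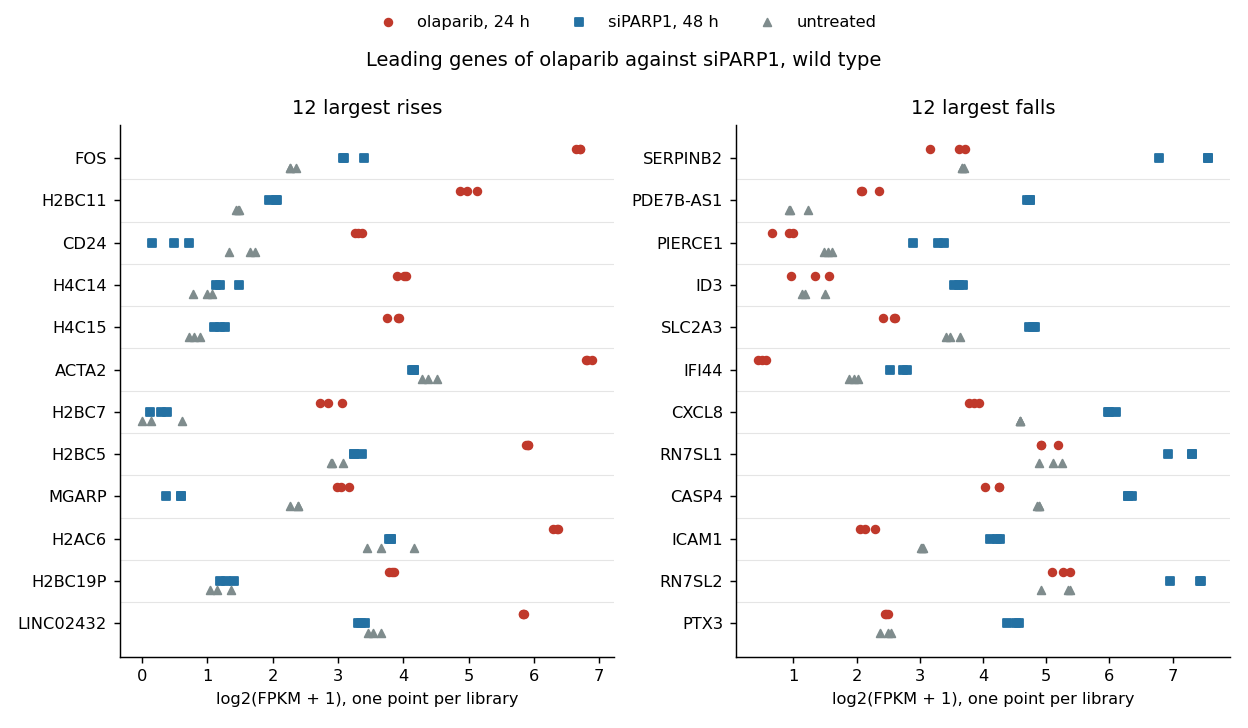
Level of the 12 genes with the largest rises (left) and the 12 with the largest falls (right) under olaparib against siPARP1 in wild-type cells, as log2(FPKM + 1) with 1 point per library (red circles, olaparib; blue squares, siPARP1; grey triangles, untreated). Olaparib and siPARP1 libraries do not overlap for any of the 24 genes, which the rule for choosing them required, and 6 of the 12 rises are replication-dependent histone genes.

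The 12 largest rises were led by FOS and held 7 histone loci. FOS, a subunit of the AP-1 transcription factor that growth signals switch on within minutes, had 98.9, 104 and 103 FPKM under olaparib, against 9.56, 7.501 and 7.46 FPKM under siPARP1. The log2 difference was 3.50 ± 0.084 (SE; adjusted p = 4.96e-13), a ratio of 12.5, and untreated cells averaged 3.93 FPKM. ACTA2, smooth muscle actin and a contractile gene, had 112, 117 and 111 FPKM under olaparib, against 16.5, 16.95 and 16.9 FPKM under siPARP1, while untreated cells averaged 20.1 FPKM, so that olaparib stood apart from both other groups. CD24, a surface glycoprotein used to sort breast cancer cells, had 9.33, 8.56 and 8.90 FPKM under olaparib, against 0.110, 0.408 and 0.639 FPKM under siPARP1. Untreated cells lay between them with 2.33, 1.52 and 2.13 FPKM, so CD24 was above untreated under olaparib and below it under siPARP1. MGARP, a mitochondrial protein, showed the same order with 6.88, 7.24 and 7.95 FPKM under olaparib, against 0.518, 0.293 and 0.505 FPKM under siPARP1, and 4.097 FPKM in untreated cells. LINC02432, a long non-coding RNA, averaged 56.4 ± 0.412 FPKM under olaparib and 9.26 ± 0.393 FPKM under siPARP1 (SD, n = 3 each).

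The 12 largest falls were genes high under siPARP1. SERPINB2, an inhibitor of the urokinase plasminogen activator, had 7.96, 11.3 and 12.1 FPKM under olaparib, against 188, 109 and 187 FPKM under siPARP1. The difference was -3.80 ± 0.19 (adjusted p = 4.66e-10), and as untreated cells averaged 11.8 FPKM, it was siPARP1 cells that stood apart. PTX3, a secreted pattern-recognition protein, had 4.67, 4.53 and 4.47 FPKM under olaparib, against 21.9, 22.7 and 19.8 FPKM under siPARP1, with 4.56 FPKM in untreated cells. ID3, a target of BMP signals that blocks helix-loop-helix factors, averaged 1.48 ± 0.504 FPKM under olaparib and 11.2 ± 0.593 FPKM under siPARP1 (SD, n = 3 each), and its untreated mean was 1.43 FPKM. For these 3 genes the olaparib and untreated levels were close, with log2 differences from untreated of -0.18, 0.00020 and 0.019, none of them called.

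Several other leading falls lay on both sides of the untreated level. SLC2A3, the neuronal-type glucose transporter GLUT3, had 5.12, 4.33 and 5.02 FPKM under olaparib, against 26.6, 27.4 and 25.5 FPKM under siPARP1, with 10.4 FPKM in untreated cells. CASP4, the inflammatory caspase that senses intracellular lipopolysaccharide, averaged 17.2 FPKM under olaparib and 78.6 FPKM under siPARP1, against 28.4 FPKM in untreated cells. ICAM1, an adhesion molecule under NF-kB control, averaged 3.46 FPKM under olaparib and 17.4 FPKM under siPARP1, against 7.20 FPKM in untreated cells. All 3 were thus below untreated under olaparib and above it under siPARP1. PIERCE1, a protein of ciliary microtubules, averaged 0.830 FPKM under olaparib and 8.23 FPKM under siPARP1. PDE7B-AS1 averaged 3.51 FPKM under olaparib and 25.5 FPKM under siPARP1, both above the untreated mean of 1.06 FPKM. Because no source used here states whether counting used strand, its reads cannot be told apart from those of the gene on the other strand.

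RN7SL1 and RN7SL2, the RNA of the signal recognition particle that docks ribosomes to the endoplasmic reticulum, were also among the falls. RN7SL1 had 29.3, 29.2 and 35.2 FPKM under olaparib, against 156, 157 and 120.4 FPKM under siPARP1, and RN7SL2 had 40.4, 32.95 and 37.4 FPKM under olaparib, against 172, 174 and 123 FPKM under siPARP1. The genes are near-identical copies that share reads, so their split is uncertain. Their untreated means were 33.1 and 36.6 FPKM, close to the olaparib libraries. In knockout cells under siPARP1 RN7SL1 was uneven, at 146, 359 and 132 FPKM. The libraries were made from oligo(dT)-selected RNA, and how well they measure these short RNAs was not tested.

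**Figure D2:**
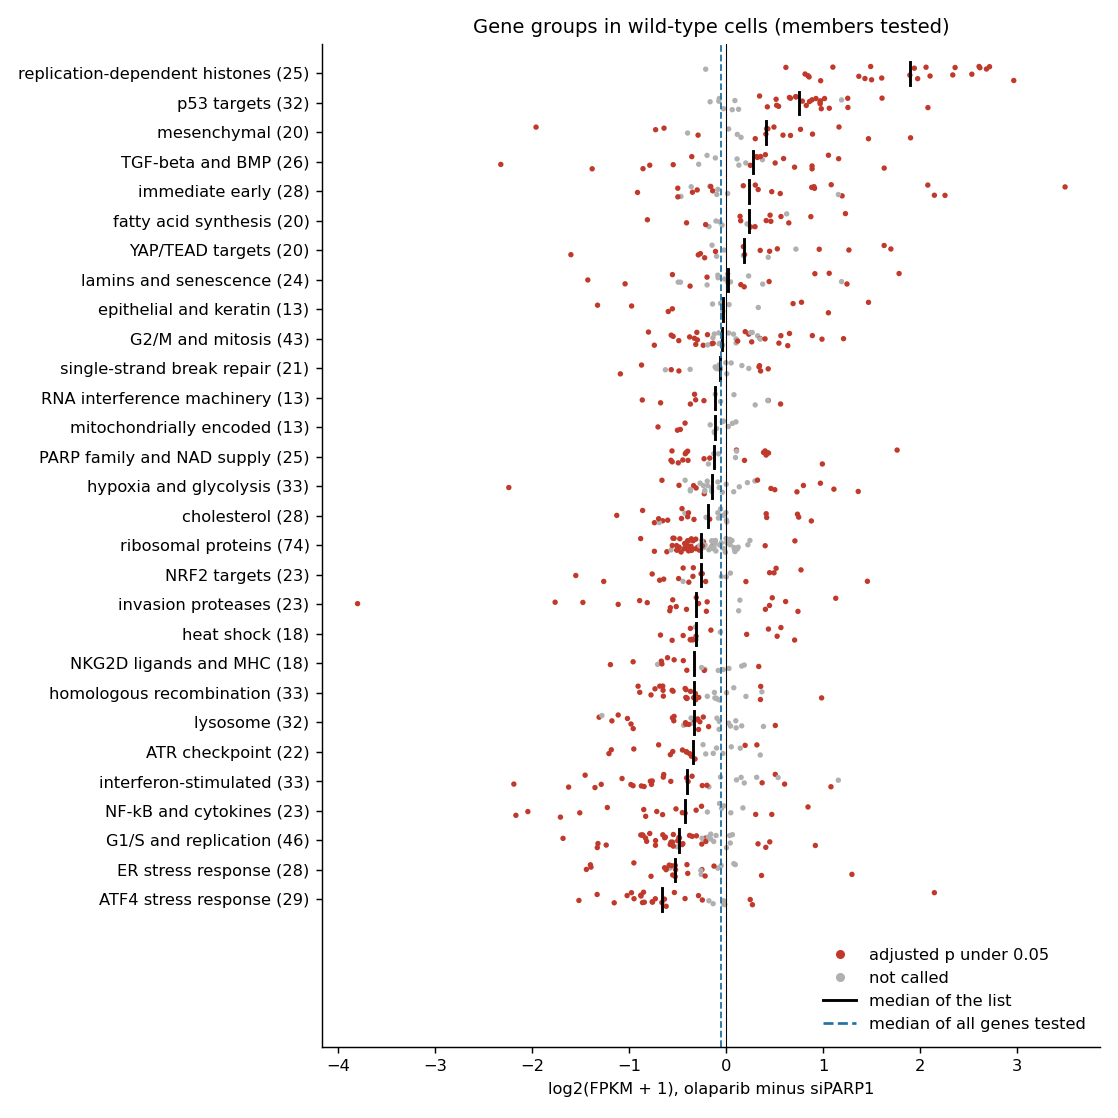
Difference between olaparib and siPARP1 for the tested members of 29 gene lists in wild-type cells, in log2(FPKM + 1) with 1 point per gene (red, adjusted p under 0.05; grey, not called), the median of each list as a black bar and the median of all genes tested as a dashed line. Replication-dependent histones have the highest median (1.90), p53 targets the next (0.75), and the ATF4 stress response the lowest (-0.66).

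Replication-dependent histone transcripts were the group with the widest separation. These genes package newly copied DNA, and their messages normally end in a stem-loop in place of a poly(A) tail, so libraries made from oligo(dT)-selected RNA see the polyadenylated part of them. Of 63 genes, 25 passed the filter, 24 of those were higher under olaparib and none was lower, and the median difference of the 25 was 1.90. A member that passed through the olaparib libraries alone had to differ, so the count is a description. H2BC11 had 30.4, 28.1 and 34.1 FPKM under olaparib, against 3.18, 3.15 and 2.86 FPKM under siPARP1, with 1.76 FPKM in untreated cells. H2BC8 had 41.7, 43.6 and 40.3 FPKM under olaparib, against 6.83, 7.88 and 7.33 FPKM under siPARP1, with 3.61 FPKM in untreated cells. Both were lowest in untreated cells. H2BC5 averaged 58.6 ± 0.812 FPKM under olaparib and 8.78 ± 0.499 FPKM under siPARP1, and the H2A gene H2AC6 averaged 79.9 ± 2.23 FPKM under olaparib and 12.95 ± 0.135 FPKM under siPARP1 (SD, n = 3 each). The summed level of all 63 genes was 740 ± 12.7 FPKM under olaparib and 200.3 ± 8.11 FPKM under siPARP1, and ran from 104 to 114 FPKM in untreated cells. The siPARP1 cells were therefore also above untreated cells, with 14 of the 25 called higher. H4C14 averaged 14.9 FPKM under olaparib and 1.42 FPKM under siPARP1. H4C15, which encodes the same protein, averaged 13.7 FPKM under olaparib and 1.28 FPKM under siPARP1, and reads of near-identical histone copies cannot be assigned with certainty. H2BC7 averaged 6.41 FPKM under olaparib and 0.204 FPKM under siPARP1, and the pseudogene H2BC19P averaged 13.2 FPKM under olaparib and 1.46 FPKM under siPARP1. H3C6, an H3 gene, was the exception among the 25 with 3.11, 2.46 and 2.51 FPKM under olaparib, against 3.20, 3.04 and 3.56 FPKM under siPARP1, and it was not called (difference -0.21 ± 0.096, adjusted p = 0.0788, and 0.0282 without olaparib library 1).

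The promoters of the histone genes were examined because the group moved together. The octamer ATTTGCAT, the site of the Oct factors that drive H2B transcription, was searched on both strands between 250 bases before and 50 after each start in the RefSeq promoters of GRCh38.p14. It lay in 13 of 16 H2B promoters and 11 of 42 other histone promoters of the list, against 1.80% of 27305 promoters. A match describes these letters and not a bound factor. The stretches shown are 120 bases upstream of H2BC11 (minus strand, chr6:27132805-27132924) and of H2BC8 (minus strand, chr6:26216699-26216818), chosen after the values were seen, with the octamer in capitals.
H2BC11: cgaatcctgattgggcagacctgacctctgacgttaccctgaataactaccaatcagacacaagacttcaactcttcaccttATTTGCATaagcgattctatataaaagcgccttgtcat
H2BC8: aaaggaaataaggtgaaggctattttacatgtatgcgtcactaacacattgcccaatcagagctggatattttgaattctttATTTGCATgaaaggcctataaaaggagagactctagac

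Targets of p53 were higher under olaparib. Of 32 genes, all tested, 24 were higher and none lower (1 lower without olaparib library 1), with a median difference of 0.75, against 23.9% of all genes higher. MDM2, the ubiquitin ligase that degrades p53 and a p53 target itself, had 238, 240.1 and 244 FPKM under olaparib, against 58.2, 54.8 and 55.2 FPKM under siPARP1 (log2 2.08 ± 0.036, adjusted p = 6.11e-14). Untreated cells averaged 70.5 FPKM, above every siPARP1 library. BTG2, an antiproliferative regulator of mRNA decay, averaged 27.99 ± 1.10 FPKM under olaparib and 8.51 ± 0.237 FPKM under siPARP1, and ZMAT3, an RNA-binding p53 target, 20.8 ± 0.600 FPKM under olaparib and 8.20 ± 1.36 FPKM under siPARP1 (SD, n = 3 each). CDKN1A, the cell cycle inhibitor p21, had 57.8, 216 and 206 FPKM under olaparib, against 135, 38.8 and 40.2 FPKM under siPARP1. These libraries overlapped, with 1 olaparib library low and 1 siPARP1 library high, and the difference of 1.19 ± 0.56 was not called (adjusted p = 0.0895). It was called without olaparib library 1 (1.81, adjusted p = 0.0123) or without siPARP1 library 1 (1.77, 0.0159). Against the untreated libraries, 28 of the 32 were higher and 1 lower under olaparib, while siPARP1 gave 10 higher and 8 lower. MDA-MB-231 carries a mutant p53, and which factor acts on these genes was not tested.

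Genes of the G1/S transition and of DNA replication were lower under olaparib. Of 46 tested, 31 were lower and 4 higher, with a median of -0.48, against 29.5% of all genes lower. MCM6, a subunit of the replicative helicase, had 9.91, 10.5 and 10.04 FPKM under olaparib, against 28.5, 26.01 and 26.6 FPKM under siPARP1 (log2 -1.33 ± 0.041, adjusted p = 4.50e-12), and untreated cells averaged 39.9 FPKM, above both. CCNE2, a cyclin that drives entry into S phase, averaged 1.11 ± 0.373 FPKM under olaparib and 5.70 ± 0.171 FPKM under siPARP1, and CDT1, which loads the helicase, 1.59 ± 0.113 FPKM under olaparib and 5.52 ± 1.10 FPKM under siPARP1 (SD, n = 3 each). RRM2, the small subunit of ribonucleotide reductase, had 40.6, 38.1 and 35.02 FPKM under olaparib, against 107, 103 and 66.9 FPKM under siPARP1. The higher members were GINS4 of the GINS complex (15.3 FPKM under olaparib and 7.61 FPKM under siPARP1), TYMS, which makes thymidylate (47.2 FPKM under olaparib and 34.3 FPKM under siPARP1), TK1 and RFC2. A fit of the compared libraries alone left 2 higher members, without TK1 (adjusted p = 0.0594) and RFC2 (0.0531), and RFC2 also lost its call without olaparib library 2 (0.146), siPARP1 library 1 (0.0734) or siPARP1 library 2 (0.0783). Both agents lay below the shared untreated libraries, with 44 of the 46 lower under olaparib and 34 under siPARP1, and medians of -0.92 and -0.54.

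The E2F motif was searched in the same promoters, as TTTGGCGC and as TTTCCCGC on both strands. Each form lay in 9 of the 39 promoters of the list that were matched, against 0.659% and 1.66% of all promoters. MCM6 is shown because its difference was among the largest of the list (minus strand, chr2:135876526-135876645), and 2 copies of the first form are in capitals. TYMS, a higher member, holds the second form.
MCM6: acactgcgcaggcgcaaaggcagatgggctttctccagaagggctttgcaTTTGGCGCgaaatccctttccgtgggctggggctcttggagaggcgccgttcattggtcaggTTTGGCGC

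Mitotic genes did not move one way. Of 43 tested, 13 were higher and 14 lower, where 23.9% of all genes were higher and 29.5% lower. The median of -0.037 became 0.015 under median-of-ratios scaling, with 17 higher and 11 lower. PRC1, which bundles the microtubules of the central spindle, averaged 43.2 ± 2.47 FPKM under olaparib and 18.2 ± 2.86 FPKM under siPARP1, and DLGAP5, a spindle protein, 40.8 ± 1.05 FPKM under olaparib and 21.6 ± 0.277 FPKM under siPARP1 (SD, n = 3 each). FOXM1, a transcription factor of mitotic genes, had 39.7, 30.95 and 41.1 FPKM under olaparib, against 13.6, 18.99 and 22.9 FPKM under siPARP1. On the other side, CCNA2, cyclin A, averaged 12.9 ± 0.250 FPKM under olaparib and 23.2 ± 0.434 FPKM under siPARP1, and NDC80, a kinetochore protein, 6.43 ± 0.526 FPKM under olaparib and 11.4 ± 1.31 FPKM under siPARP1. Against untreated cells 39 were lower under olaparib and 40 under siPARP1, and none was higher under either.

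Cyclins, a cell cycle inhibitor and a lamin of the senescence list also separated. CCND1, cyclin D1, had 242, 229 and 234 FPKM under olaparib, against 113, 113 and 109 FPKM under siPARP1, and CCND2 averaged 3.83 FPKM under olaparib and 1.04 FPKM under siPARP1. CDKN1B, the inhibitor p27, had 12.6, 12.6 and 12.8 FPKM under olaparib, against 27.4, 27.5 and 26.5 FPKM under siPARP1 and so was opposite to the cyclins. LMNB1, lamin B1, whose loss accompanies senescence, had 16.6, 15.4 and 18.3 FPKM under olaparib, against 44.7, 40.01 and 56.7 FPKM under siPARP1, with an untreated mean of 67.9 FPKM. IGFBP7, a secreted protein of senescent cells, averaged 16.7 ± 0.853 FPKM under olaparib and 4.14 ± 0.576 FPKM under siPARP1 (SD, n = 3 each). The lamin and senescence list as a whole had 7 members higher and 5 lower of 24 tested, a median of 0.017. Among all genes 23.9% were higher and 29.5% lower, so the list as a whole did not stand out.

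Repair genes of recombination and of the replication checkpoint were more often lower than higher under olaparib against siPARP1. Of 33 genes of homologous recombination and the Fanconi anaemia pathway, which mend the breaks that PARP inhibition leaves at forks, 20 were lower and 3 higher, with a median of -0.33. EXO1, a resection nuclease, had 3.86, 3.80 and 3.81 FPKM under olaparib, against 8.20, 7.36 and 8.31 FPKM under siPARP1, and RAD51D, a recombination factor, averaged 2.30 ± 0.223 FPKM under olaparib and 5.20 ± 0.528 FPKM under siPARP1 (SD, n = 3 each). BRCA1 had 6.75, 8.41 and 5.77 FPKM under olaparib, against 10.6, 15.6 and 10.8 FPKM under siPARP1, and its call (log2 -0.73 ± 0.24, adjusted p = 0.0201) was lost without olaparib library 3 (0.0771) or siPARP1 library 2 (0.0919). RAD51C was the largest rise of the list with 27.4, 22.2 and 26.8 FPKM under olaparib, against 14.1, 10.5 and 12.6 FPKM under siPARP1. Both agents lay below the shared untreated libraries for most of the 33. Under olaparib 27 were lower and 2 higher, and under siPARP1 21 lower and 3 higher (medians -0.76 and -0.33). Of 22 genes of the ATR checkpoint, 12 were lower and 2 higher. They included CDC25A, the phosphatase that starts S phase (3.35 FPKM under olaparib and 9.04 FPKM under siPARP1), CLSPN, an adaptor of the kinase CHEK1 (2.13 FPKM under olaparib and 5.04 FPKM under siPARP1), and the kinase WEE1 (5.15 FPKM under olaparib and 12.9 FPKM under siPARP1), whose call was lost on transcript sums (log2 -0.25, adjusted p = 0.367). Against the shared untreated libraries, 14 of the 22 checkpoint genes were lower and 2 higher under olaparib, and 7 lower and 3 higher under siPARP1. In the single-strand break and base excision pathway, where PARP1 itself acts, 4 were higher, 4 lower and 13 of 21 not called. Both shares were below the 23.9% and 29.5% of all genes. POLE3 averaged 17.9 FPKM under olaparib and 39.2 FPKM under siPARP1, the flap nuclease FEN1 18.7 FPKM under olaparib and 35.03 FPKM under siPARP1, and the glycosylase NEIL3 4.42 FPKM under olaparib and 3.27 FPKM under siPARP1.

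**Figure D3:**
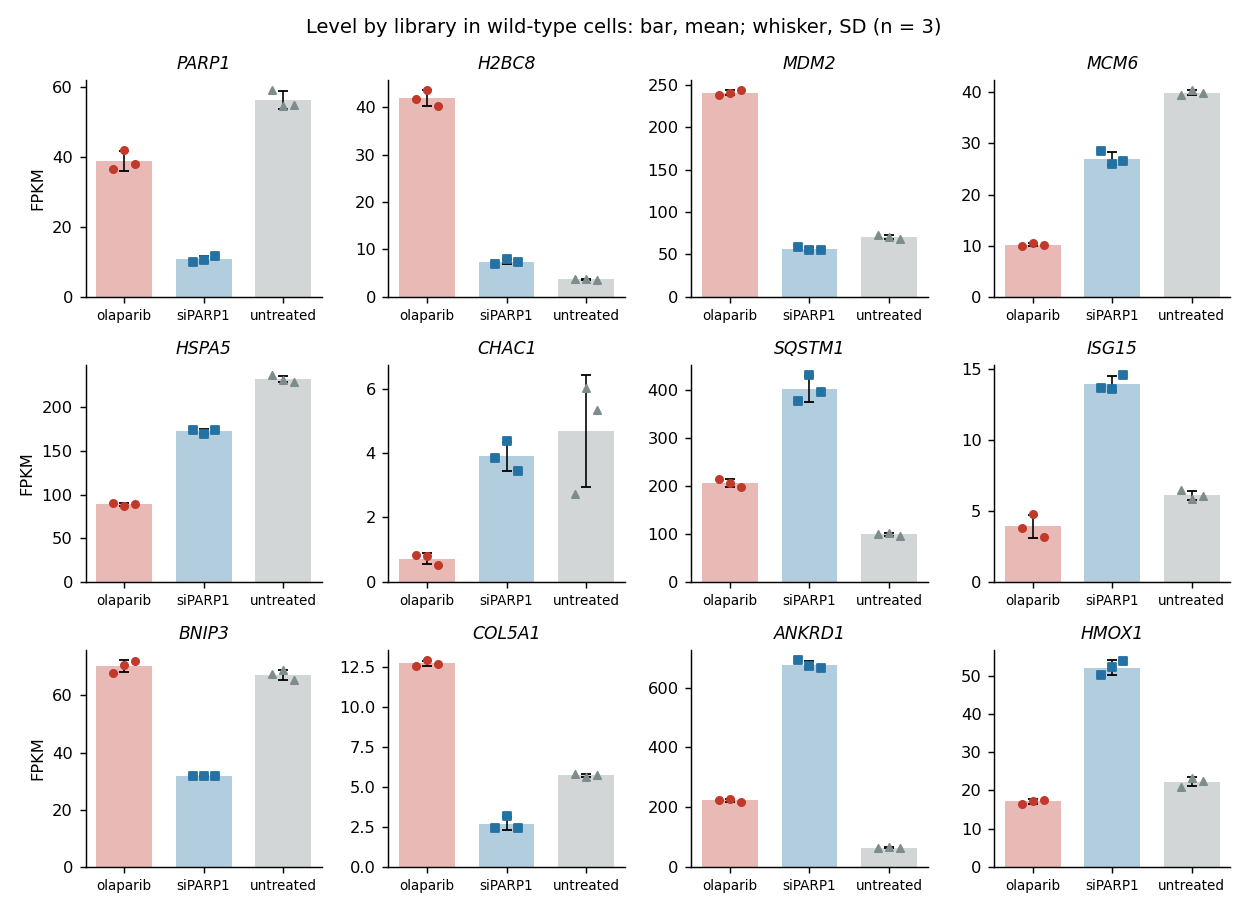
Level of 12 genes in FPKM in wild-type cells under olaparib (red), under siPARP1 (blue) and untreated (grey), with bars for means, whiskers for SD (n = 3) and points for libraries. MDM2 and H2BC8 are highest under olaparib, ANKRD1, SQSTM1, ISG15 and HMOX1 are highest under siPARP1, and HSPA5 and MCM6 are lowest under olaparib.

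The stress response of the endoplasmic reticulum (ER) was lower under olaparib. When unfolded proteins collect in the ER, the sensors IRE1, PERK and ATF6 raise chaperones and degradation factors through XBP1, ATF4 and cleaved ATF6. Of 28 such genes tested, 19 were lower and 2 higher, with a median of -0.52. HSPA5, the chaperone BiP, had 90.7, 86.5 and 88.99 FPKM under olaparib, against 175, 169 and 174 FPKM under siPARP1 (log2 -0.95 ± 0.034, adjusted p = 1.70e-11). Untreated cells averaged 233 FPKM, above both, and on transcript sums, which held only 10.9 and 18.5 FPKM, the difference of -0.50 was not called (adjusted p = 0.849). DNAJB9, a co-chaperone of BiP, averaged 5.95 ± 0.108 FPKM under olaparib and 17.9 ± 1.16 FPKM under siPARP1, and HERPUD1, a part of the degradation machinery, 19.4 ± 2.37 FPKM under olaparib and 53.03 ± 6.99 FPKM under siPARP1 (SD, n = 3 each). XBP1 had 5.56, 12.3 and 13.2 FPKM under olaparib, against 25.9, 28.04 and 27.6 FPKM under siPARP1, with 1 olaparib library well below the other 2. SEC61B, a subunit of the translocation channel, went the other way with 74.4, 80.6 and 77.1 FPKM under olaparib, against 27.7, 33.4 and 31.8 FPKM under siPARP1, as did the chaperone CALR with 425 FPKM under olaparib and 330.0 FPKM under siPARP1.

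Targets of ATF4, the factor that restores amino acids and tRNA charging when translation is restrained, were lower too. Of 29 tested, 21 were lower and 3 higher, with the lowest median of all lists, -0.66. CHAC1, which degrades glutathione, had 0.828, 0.789 and 0.514 FPKM under olaparib, against 3.86, 4.37 and 3.46 FPKM under siPARP1. TRIB3, a pseudokinase that restrains ATF4, averaged 4.17 ± 0.365 FPKM under olaparib and 12.2 ± 3.09 FPKM under siPARP1, and STC2, a secreted glycoprotein, 12.3 ± 0.666 FPKM under olaparib and 28.6 ± 1.33 FPKM under siPARP1 (SD, n = 3 each). ATF3, which DNA damage and growth signals also raise, was opposite to the list with 20.9, 25.3 and 15.7 FPKM under olaparib, against 4.82, 2.13 and 5.05 FPKM under siPARP1. Against the shared untreated libraries, 24 of the 29 were lower under olaparib and 16 under siPARP1.

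The promoters of both pathways were searched for their elements. The ER stress response element, CCAAT and CCACG with 9 bases between them on either strand, lay in 6 of 26 matched ER promoters and in 0.0806% of all promoters. The core of the ATF4 element, TGATGNAA on either strand, lay in 8 of 28 matched promoters of its list and in 3.67% of all promoters. HSPA5 (minus strand, chr9:125241361-125241480), XBP1 (minus strand, chr22:28800573-28800692) and CHAC1 (plus strand, chr15:40953221-40953340) are shown as lower members that hold the element, with the match in capitals, which for CHAC1 reads on the opposite strand. CALR and ATF3, which were higher under olaparib, also hold the element of their list.
HSPA5: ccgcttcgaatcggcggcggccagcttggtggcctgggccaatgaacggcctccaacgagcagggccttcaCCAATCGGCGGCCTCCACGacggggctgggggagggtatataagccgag
XBP1: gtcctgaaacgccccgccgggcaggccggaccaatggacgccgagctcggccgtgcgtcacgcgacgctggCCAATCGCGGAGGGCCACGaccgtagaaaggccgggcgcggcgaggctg
CHAC1: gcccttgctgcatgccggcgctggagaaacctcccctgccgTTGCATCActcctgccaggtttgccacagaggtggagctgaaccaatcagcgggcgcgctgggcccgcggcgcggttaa

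Interferon-stimulated genes were mostly higher under siPARP1. Double-stranded RNA, from viruses or from transfection, is sensed by RIG-I and MDA5 and raises these genes through IRF and STAT factors. Of 33 tested of 47, 21 were lower and 4 higher under olaparib, with a median of -0.41. IFI44 and OAS1 were among the members that passed the filter through the siPARP1 libraries alone and so had to differ. IFI44 had 0.477, 0.411 and 0.362 FPKM under olaparib, against 5.69, 5.96 and 4.78 FPKM under siPARP1, with 2.88 FPKM in untreated cells. ISG15, a ubiquitin-like modifier, had 3.83, 4.75 and 3.13 FPKM under olaparib, against 13.7, 13.7 and 14.6 FPKM under siPARP1 (log2 -1.62 ± 0.089, adjusted p = 1.66e-09), with 6.11 FPKM in untreated cells. OAS1, which makes the activator of RNase L, averaged 0.468 ± 0.0692 FPKM under olaparib and 3.04 ± 0.453 FPKM under siPARP1 (SD, n = 3 each). The higher members were IFIT1 (10.6 FPKM under olaparib and 6.63 FPKM under siPARP1) and IFIT3 (15.01 FPKM under olaparib and 10.3 FPKM under siPARP1), which bind foreign RNA, the kinase EIF2AK2, and IRF1, a transcription factor (10.1 FPKM under olaparib and 4.24 FPKM under siPARP1). Against the shared untreated libraries, olaparib gave 4 of the 33 higher and 15 lower, where 26% of all genes were higher and 20.6% lower. For siPARP1 12 were higher and 7 lower, where 30.8% of all genes were higher and 22.3% lower. The counts thus lay further from the shares of all genes under olaparib than under siPARP1. The call of EIF2AK2 was lost without olaparib library 3 (adjusted p = 0.0765), without siPARP1 library 2 (0.121) and on transcript sums (0.773). With no non-targeting siRNA library analysed here, the part of the transfection was not tested.

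The core of the interferon-stimulated response element, a pair of GAAA with 2 bases between them on either strand, lay in 21 of 36 matched promoters of the list, against 3.65% of all promoters. IFI44 (plus strand, chr1:78649669-78649788) and ISG15 (plus strand, chr1:1013304-1013423) are shown as leading falls, with the match in capitals; in ISG15 2 matches overlap, and in IFI44 it reads on the opposite strand. IFIT1, IFIT3 and EIF2AK2, which were higher under olaparib, also hold the element.
IFI44: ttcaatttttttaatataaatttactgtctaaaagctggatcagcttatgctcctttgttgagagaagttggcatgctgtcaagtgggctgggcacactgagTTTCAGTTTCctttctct
ISG15: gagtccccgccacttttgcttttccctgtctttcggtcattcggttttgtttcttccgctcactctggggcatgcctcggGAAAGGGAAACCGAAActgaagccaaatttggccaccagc

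Genes under NF-kB control followed the same direction. Of 23 tested, 14 were lower and 3 higher under olaparib, with a median of -0.42. CXCL8, the neutrophil attractant interleukin 8, had 13.4, 14.3 and 12.8 FPKM under olaparib, against 67.8, 61.8 and 62.9 FPKM under siPARP1, and untreated cells averaged 22.99 FPKM. IL24, a cytokine of the interleukin 10 family, averaged 0.400 ± 0.189 FPKM under olaparib and 3.55 ± 0.309 FPKM under siPARP1 (SD, n = 3 each). IL6 (19.4 FPKM under olaparib and 13.7 FPKM under siPARP1), CSF1 (5.58 FPKM under olaparib and 2.68 FPKM under siPARP1) and LIF were the 3 higher members. Of the 18 ligands of natural killer receptors and antigen presentation genes tested, 9 were lower and 1 higher, and none was higher without olaparib library 2 or 3 or without siPARP1 library 1 or 2. CD274, which encodes the checkpoint ligand PD-L1, had 0.368, 0.687 and 0.292 FPKM under olaparib, against 2.04, 2.06 and 2.82 FPKM under siPARP1, and ULBP2, a stress-induced ligand of NKG2D, averaged 2.36 FPKM under olaparib and 4.33 FPKM under siPARP1.

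Components of RNA interference, which process and load siRNA, were described because 1 arm received an siRNA. Of 13 tested, 6 were lower and 2 higher under olaparib. TARBP2, which loads duplexes into the silencing complex, had 8.10, 9.59 and 9.57 FPKM under olaparib, against 18.5, 16.9 and 16.6 FPKM under siPARP1, and AGO2, the slicing argonaute, averaged 7.70 FPKM under olaparib and 12.9 FPKM under siPARP1. PRKRA, an activator of the kinase PKR, was higher with 25.5 FPKM under olaparib and 16.9 FPKM under siPARP1.

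Lysosomal genes were more often lower than higher under olaparib against siPARP1. Of 32 tested, 18 were lower and 1 higher (2 higher without olaparib library 2 or siPARP1 library 2), with a median of -0.34. Against the shared untreated libraries, 15 of the 32 were higher and 2 lower under olaparib, and 26 higher and 2 lower under siPARP1, with medians of 0.27 and 0.69. ATP6V1B2, a subunit of the proton pump, averaged 34.8 ± 0.397 FPKM under olaparib and 80.01 ± 1.98 FPKM under siPARP1, and the protease CTSL 37.9 ± 1.83 FPKM under olaparib and 83.3 ± 5.13 FPKM under siPARP1 (SD, n = 3 each). SQSTM1, the autophagy receptor p62, had 215, 207 and 198 FPKM under olaparib, against 379, 432 and 397 FPKM under siPARP1, with 99.7 FPKM in untreated cells. MCOLN1, a lysosomal calcium channel, had 9.10, 8.02 and 8.47 FPKM under olaparib, against 16.1, 17.8 and 19.6 FPKM under siPARP1, with 5.73 FPKM in untreated cells. HSPA5, MCOLN1, SQSTM1, H2BC8, H3C6, CDKN1A, BRCA1, RRM2, EGR1, TK1 and EIF2AK2 were chosen after their values were seen.

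The site of the lysosomal regulators TFEB and TFE3, TCACGTGA, which reads the same on both strands, lay in 4 of 19 matched lysosomal promoters and in 1.04% of all promoters. MCOLN1 (plus strand, chr19:7522500-7522619) is shown, with 2 copies in capitals.
MCOLN1: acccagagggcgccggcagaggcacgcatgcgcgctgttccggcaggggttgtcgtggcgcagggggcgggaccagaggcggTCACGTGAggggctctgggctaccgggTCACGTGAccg

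**Figure D4:**
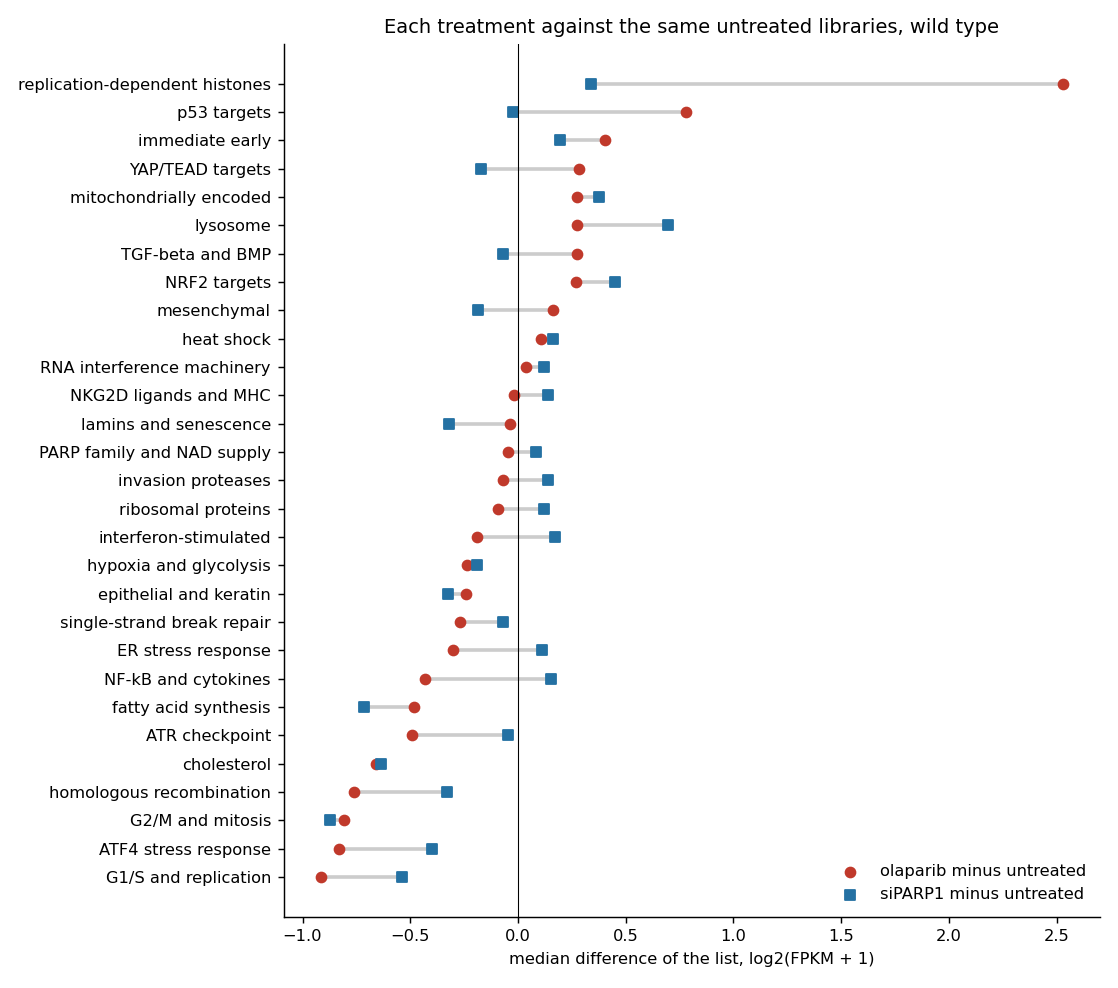
Median difference from untreated wild-type cells for the tested members of 29 gene lists, in log2(FPKM + 1), under olaparib (red circles) and under siPARP1 (blue squares); both use the same 3 untreated libraries. Histones (2.53 and 0.34) and p53 targets (0.78 and -0.022) lie far to the right under olaparib, G1/S genes lie left of 0 under both agents, and lysosomal genes (0.27 and 0.69) lie right of 0 under both.

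Redox and metabolic genes split within their lists. Of 23 targets of NRF2, the regulator of antioxidant genes, 13 were lower and 6 higher under olaparib. HMOX1, haem oxygenase, had 16.5, 17.3 and 17.6 FPKM under olaparib, against 50.2, 52.3 and 54.02 FPKM under siPARP1, and GCLC, which starts glutathione synthesis, averaged 7.14 ± 1.00 FPKM under olaparib and 18.5 ± 2.64 FPKM under siPARP1 (SD, n = 3 each). The higher members included TKT, transketolase of the pentose phosphate pathway, with 340.4, 334 and 321 FPKM under olaparib, against 108, 135 and 118 FPKM under siPARP1, and NQO1 with 8.13 FPKM under olaparib and 4.34 FPKM under siPARP1. In the hypoxia and glycolysis list 8 were higher, 6 lower and 19 of 33 not called, and the lower count was 2 without olaparib library 1 and 3 without siPARP1 library 2. The higher share was near the 23.9% of all genes and the lower share below the 29.5%, so the list as a whole did not stand out. BNIP3, a mitophagy receptor, had 67.9, 70.6 and 72.04 FPKM under olaparib, against 31.9, 31.9 and 31.9 FPKM under siPARP1, and LDHA, lactate dehydrogenase, 391, 389 and 373 FPKM under olaparib, against 188, 192 and 206 FPKM under siPARP1. Their untreated means of 67.2 and 384 FPKM were close to the olaparib level. ADM, adrenomedullin, had 78.05, 81.9 and 33.4 FPKM under olaparib, against 25.7, 22.8 and 19.8 FPKM under siPARP1, with 1 olaparib library well below the other 2 but above every siPARP1 library.

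Lipid genes followed different directions. Of 20 genes of fatty acid synthesis 11 were higher and 3 lower under olaparib, with a median of 0.23. Against the shared untreated libraries, 0 were higher and 15 lower under olaparib, and 2 higher and 16 lower under siPARP1 (medians -0.48 and -0.71). FADS1, a desaturase, had 25.6, 27.1 and 25.9 FPKM under olaparib, against 9.86, 10.9 and 11.1 FPKM under siPARP1, below the untreated mean of 47.8 FPKM under both agents. SCD5, another desaturase, averaged 14 FPKM under olaparib and 7.18 FPKM under siPARP1, and the elongase ELOVL1 52.3 FPKM under olaparib and 93.6 FPKM under siPARP1. Of 28 genes of cholesterol synthesis and transport, 5 were higher and 12 lower (5 and 8 under median-of-ratios scaling). Against the untreated libraries, 1 was higher and 21 lower under olaparib, and 2 higher and 20 lower under siPARP1. NPC1, which exports cholesterol from lysosomes, averaged 16.8 FPKM under olaparib and 37.9 FPKM under siPARP1, and CYP51A1, a synthesis enzyme, 27.5 FPKM under olaparib and 46.5 FPKM under siPARP1. ABCA1, the efflux pump, averaged 12.1 FPKM under olaparib and 6.12 FPKM under siPARP1, a call that was lost on transcript sums (log2 0.89, adjusted p = 0.0516).

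Invasion and matrix genes, to which the study's design refers, were divided. Of 23 proteases and inhibitors tested, 15 were lower and 6 higher under olaparib. SERPINB2, described with the largest falls, led them. ADAM19, a membrane metalloprotease, had 19.5, 19.4 and 16.95 FPKM under olaparib, against 61.8, 70.8 and 64.1 FPKM under siPARP1, and MMP1, interstitial collagenase, had 0.167, 0.0847 and 0.273 FPKM under olaparib, against 1.96, 2.89 and 2.02 FPKM under siPARP1, with 0.0264, 0.0906 and 0.0545 FPKM in untreated cells. MMP24 went the other way with 5.09, 4.97 and 4.96 FPKM under olaparib, against 1.62, 1.87 and 1.74 FPKM under siPARP1, though untreated cells had more, 8.38 FPKM on average. Of 20 mesenchymal genes, 12 were higher and 4 lower, with a median of 0.41. COL5A1, a fibrillar collagen, had 12.6, 12.9 and 12.7 FPKM under olaparib, against 2.45, 3.16 and 2.45 FPKM under siPARP1, and untreated cells averaged 5.72 FPKM, between the groups. S100A4, a calcium-binding protein of motile cells, averaged 2.61 FPKM under olaparib and 0.306 FPKM under siPARP1, and FSTL1 74.01 FPKM under olaparib and 32.4 FPKM under siPARP1. LOX, which crosslinks collagen, was opposite with 16.7, 19.7 and 22.1 FPKM under olaparib, against 80.2, 77.1 and 77.7 FPKM under siPARP1, as were FN1, fibronectin (262 FPKM under olaparib and 409 FPKM under siPARP1), and VIM, vimentin (1818 FPKM under olaparib and 2220.2 FPKM under siPARP1). Keratins and junction genes gave 4 higher and 4 lower of 13, near the 23.9% and 29.5% of all genes. KRT8 had 1578, 1392 and 889.9 FPKM under olaparib, against 529.8, 423 and 409 FPKM under siPARP1, KRT19 averaged 238 FPKM under olaparib and 147 FPKM under siPARP1, and the tight junction gene CLDN1 9.05 FPKM under olaparib and 24.2 FPKM under siPARP1. CAV1, the coat protein of caveolae and a marker of the line, had 532, 546 and 560.0 FPKM under olaparib, against 173, 192 and 181 FPKM under siPARP1, with an untreated mean of 505 FPKM. GATA3, a luminal factor, averaged 22.9 FPKM under olaparib and 14.4 FPKM under siPARP1.

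Signalling targets also divided. Of 28 immediate early genes, 14 were higher and 7 lower under olaparib. FOSB, a partner of FOS, had 7.45, 8.42 and 11.7 FPKM under olaparib, against 0.933, 1.18 and 1.18 FPKM under siPARP1, and EGR1, a zinc finger factor, had 51.97, 51.1 and 53.3 FPKM under olaparib, against 11.5, 11.2 and 11.95 FPKM under siPARP1. SPRY4, a feedback inhibitor of receptor kinases, was lower with 8.51 FPKM under olaparib and 16.9 FPKM under siPARP1. The CArG box, a run of A and T between CC and GG, was also searched in the promoters. It lay in 2 of 26 matched promoters of the immediate early list, against 1.29% of all promoters. They were those of EGR1 and of SRF, which was lower under olaparib (log2 -0.35). Of 26 TGF-beta and BMP genes, 13 were higher and 6 lower. The ligand BMP4 averaged 7.38 ± 0.261 FPKM under olaparib and 1.71 ± 0.0964 FPKM under siPARP1 and its receptor BMPR2 15.9 ± 0.590 FPKM under olaparib and 6.57 ± 0.0765 FPKM under siPARP1 (SD, n = 3 each), whereas the antagonist FST averaged 10.8 FPKM under olaparib and 29.7 FPKM under siPARP1 and the target ID1 12.3 FPKM under olaparib and 23.1 FPKM under siPARP1. Of 20 YAP/TEAD genes 9 were higher and 5 lower. F3, tissue factor, had 409.7, 415 and 415 FPKM under olaparib, against 128, 125 and 127 FPKM under siPARP1, and AJUBA averaged 92.99 FPKM under olaparib and 29.4 FPKM under siPARP1. ANKRD1, a standard YAP target, was opposite with 223, 225 and 218 FPKM under olaparib, against 691, 671 and 665 FPKM under siPARP1. Untreated cells averaged 64.04 FPKM, so ANKRD1 was above untreated cells under both agents.

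Ribosomal, mitochondrial and heat shock genes were read as housekeeping groups, but not as a stable reference. Of 74 ribosomal protein genes 38 were lower and 2 higher under olaparib, with a median of -0.26 (5 higher under both other scalings). RPSA averaged 299.5 FPKM under olaparib and 552 FPKM under siPARP1, RPL3 521 FPKM under olaparib and 796 FPKM under siPARP1, and RPL7, the largest rise, 516 FPKM under olaparib and 315 FPKM under siPARP1. Of 13 messages encoded in mitochondria 4 were lower and none higher, a share near the 29.5% of all genes, and the largest differences were those of MT-ND2 (4551 FPKM under olaparib and 7392 FPKM under siPARP1) and MT-ND1 (3862 FPKM under olaparib and 5466 FPKM under siPARP1), subunits of complex I. Against the shared untreated libraries, 9 of the 13 mitochondrial messages were higher under olaparib and 12 under siPARP1, and none was lower under either. Of 18 heat shock genes 10 were lower and 5 higher, with HSP90AB1 at 927 FPKM under olaparib and 1260.4 FPKM under siPARP1. DNAJB4, a co-chaperone, rose to 260.0 FPKM under olaparib, against 159.7 FPKM under siPARP1.

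The comparison was repeated in TRIM27 knockout cells, which share no library with the wild-type comparison. There, 3382 genes (22.8%) were higher and 4508 (30.5%) lower under olaparib, together 53.3% of the 14803. Of the wild-type calls, 77.7% were also called in the knockout in the same direction, and of the knockout calls 77.9% were called the same way in wild type. That was 6145 genes, while 53 were called in opposite directions. Across genes, which are not independent replicates, the 2 sets of differences correlated at 0.834. TRIM27 itself had 0.555, 0.681 and 0.650 FPKM in knockout cells under olaparib, 0.946, 0.982 and 1.04 FPKM under siPARP1 and 0.665, 0.547 and 0.658 FPKM untreated, all below the wild-type libraries, whose lowest was 1.18 FPKM. PARP1 had 40.6, 38.7 and 40.9 FPKM under olaparib, against 8.71, 9.58 and 9.46 FPKM under siPARP1 in knockout cells. MDM2 had 231, 227 and 230.2 FPKM under olaparib, against 50.4, 51.4 and 52.2 FPKM under siPARP1, both close to wild type. The knockout counts were 23 higher and 0 lower for histones, 27 and 0 for p53 targets, 7 and 29 for G1/S genes, 2 and 23 for ATF4 targets, and 3 and 19 for the ER response. For interferon-stimulated genes they were 5 and 14, and for lysosomal genes 3 and 17.

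**Figure D5:**
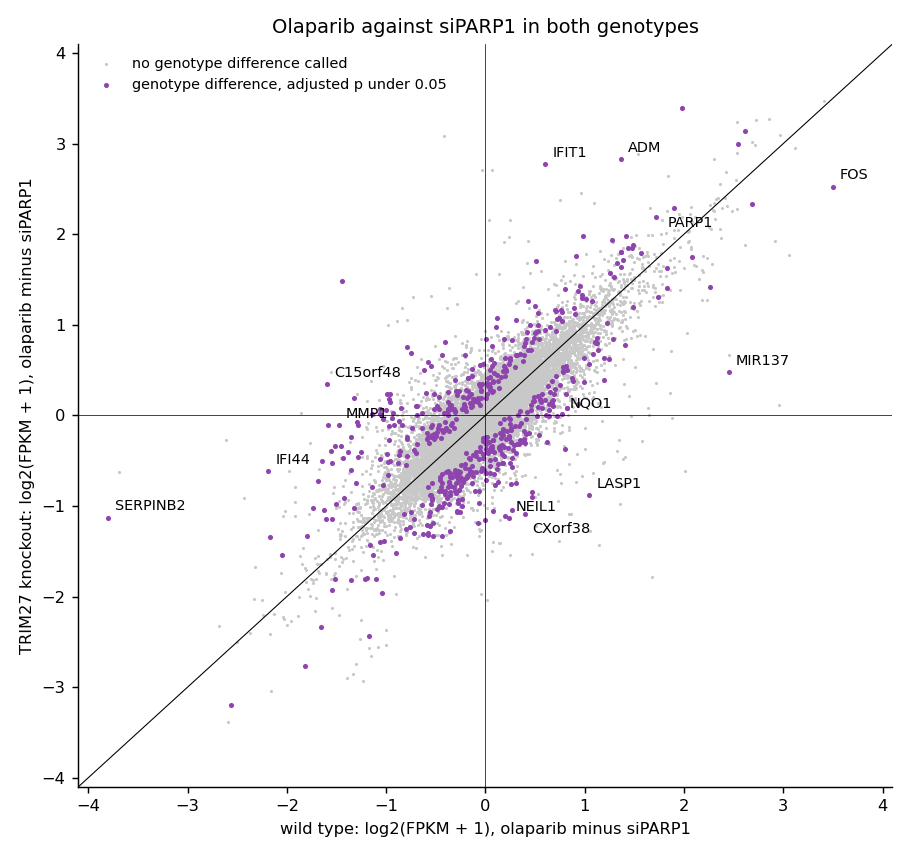
Difference between olaparib and siPARP1 in log2(FPKM + 1) for each of 14803 genes in wild-type cells (horizontal axis) and in TRIM27 knockout cells (vertical axis), with the line of equality (purple, the 563 genes whose difference differed between genotypes at an adjusted p under 0.05; grey, all others). SERPINB2 lies far left with a smaller fall in the knockout on this scale, where its knockout values were at most 1.85 FPKM. IFIT1 and ADM lie above the line.

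The size of the olaparib against siPARP1 difference itself differed between genotypes for 563 genes (3.8%), 293 with a higher value in wild type (1.98%) and 270 with a lower one (1.82%). A fit of the 12 treated libraries alone gave 330, and the count was 363 without wild-type olaparib library 2 and 365 without knockout olaparib library 3. SERPINB2 had the lowest value among the named genes. In knockout cells it had 0.182, 0.181 and 0.0376 FPKM under olaparib, against 1.14, 1.85 and 1.48 FPKM under siPARP1, at most 1.85 FPKM, and the genotype difference was -2.67 ± 0.26 (adjusted p = 6.17e-05). These knockout values lie near or below the pseudocount of 1 FPKM, so the size of the genotype difference depends on it. Without a pseudocount, the siPARP1 mean was 15.4 times the olaparib mean in wild type, and the knockout means were 1.49 and 0.133 FPKM. IFIT1 was higher under olaparib in both genotypes, with 22.2, 21.8 and 21.8 FPKM under olaparib, against 2.29, 2.21 and 2.59 FPKM under siPARP1 in knockout cells, a difference of 2.77 there and 0.60 in wild type. C15orf48, a mitochondrial protein of inflamed cells, was lower under olaparib in wild type (4.43 FPKM under olaparib and 15.4 FPKM under siPARP1) and higher in the knockout (2.73 FPKM under olaparib and 1.93 FPKM under siPARP1). CXorf38 had 2.09, 2.41 and 2.21 FPKM under olaparib, against 6.10, 5.91 and 5.56 FPKM under siPARP1 in knockout cells, opposite to wild type (9.45 FPKM under olaparib and 6.94 FPKM under siPARP1). LASP1, an actin-binding protein, had 299, 289 and 284 FPKM under olaparib, against 138, 139.7 and 143 FPKM under siPARP1 in wild type. In the knockout it averaged 78.8 FPKM under olaparib and 146 FPKM under siPARP1, and the untreated knockout libraries, which share in the estimate of the spread, were uneven at 59.4, 62.8 and 236 FPKM. MIR137, the precursor of a microRNA whose reads in such libraries come from longer transcripts, had 7.59, 8.65 and 8.68 FPKM under olaparib, against 0.108, 2.94 and 0.127 FPKM under siPARP1, with 1 siPARP1 library well above the other 2 (wild-type difference 2.45, and 3.06 without siPARP1 library 2). NEIL1, a DNA glycosylase, was not called in wild type, with 2.10, 4.23 and 2.66 FPKM under olaparib, against 2.06, 3.20 and 1.84 FPKM under siPARP1 (adjusted p = 0.361). In the knockout it had 3.82, 3.10 and 1.76 FPKM under olaparib, against 7.25, 7.19 and 7.48 FPKM under siPARP1. Among the lists, 10 of the 33 interferon-stimulated genes, 9 of the 43 mitotic genes and 8 of the 28 immediate early genes differed between genotypes.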

How the data were processed

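RNA selected with oligo(dT) beads was sequenced from 18 MDA-MB-231 libraries, per the labels' protocols. The authors deposited gene and transcript tables of FPKM. Per the submitters' processing notes, the tools were StringTie 2.2.1, featureCounts 2.0.3, HISAT2 2.2.1, DESeq2 1.38.3 and fastp 0.23.2, with the build GRCh38. Which of them made the FPKM, and the strand setting, are not given in the sources used here. Read totals were not used, so the depth behind a value is known only relative to other libraries, and FPKM are shares that shift when a few genes take more of a library.

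The 14803 genes (964 of them unnamed loci) that reached 1 FPKM in 3 or more of the 6 compared libraries were tested with limma 3.58.1 in R 4.3.3 on log2(FPKM + 1), in a single model of 6 group means over 18 libraries (12 residual degrees of freedom), with a mean-variance trend and Benjamini-Hochberg adjustment over all genes tested. Calls are adjusted p under 0.05, and the pseudocount understates changes of low genes. The steps were tested on simulated data. Olaparib and siPARP1 were contrasted directly in wild-type cells, then in knockout cells, and the 2 contrasts were compared in the same model.

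Named genes were the 12 largest rises and 12 largest falls with no overlap between libraries and at least 5 FPKM in the higher group (unnamed loci and short RNAs left out), PARP1, PARP2, TRIM27 and PAX6, up to 3 called rises and 3 called falls per list with at least 2 FPKM, and the 4 largest genotype differences each way with at least 5 FPKM. HSPA5, MCOLN1, SQSTM1, H2BC8, H3C6, CDKN1A, BRCA1, RRM2, EGR1, TK1 and EIF2AK2 were added after their values were seen. Some genes that the rule picks are not described here. The comparison, the members and the lists were chosen with earlier results of these data known. The labels number replicates 1 to 3 in every group, but same-numbered olaparib and siPARP1 libraries of wild-type cells did not deviate together (correlations of -0.018, 0.039 and -0.0041), so the numbers were not used as pairs. Alternatives were another pseudocount, 3 other filters, 2 other scalings, the compared libraries alone, a replicate block, sums of transcript FPKM and each library left out in turn.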

Additional observations from a re-analysis of the deposited data

Results flagged for a closer look

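The difference between olaparib and siPARP1 itself differed between wild-type and TRIM27 knockout cells for 40 of the 194 genes chosen by the rule or added to it (limma, adjusted p under 0.05 for the difference of differences), against 3.8% of all genes tested. All values are wild-type minus knockout difference on the log2(FPKM + 1) scale, no cause was tested, and some of these genes were named because this value was large. Most of the 194 were named for a large wild-type difference, which enters the value tested. Their share is therefore raised by the choice and is not comparable with that of all genes.

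A higher value in wild type was found for the AP-1 genes FOS (0.97) and FOSB (0.85), for EGR1 (0.33), for the stress phosphatase subunit PPP1R15A (0.29), for the heat shock gene HSPA1A (0.32), whose reads are shared with a near-identical copy, for the actin gene ACTA2 (0.35), for CCND2 (0.62), NQO1 (0.76), KRT19 (0.46), MMP24 (0.41) and PDE7B-AS1 (0.64), and for LASP1 (1.93), MIR137 (1.97), CXorf38 (1.48) and NEIL1 (1.37). In FOS, the 3 knockout libraries under olaparib (57.2, 57.2 and 57.8 FPKM) lay below those of wild type.

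A lower value in wild type was found for SERPINB2 (-2.67), MMP1 (-1.37), C15orf48 (-1.94), ADM (-1.47), FST (-0.98), ID1 (-0.46), CLDN1 (-0.31), LDHA (-0.32), HMOX1 (-0.40), HSP90AB1 (-0.20), the elongase ELOVL5 (-0.24), the kinase LATS2 of the Hippo pathway (-0.53), MGARP (-0.46) and H2BC5 (-0.52). The same held for the interferon-stimulated genes IFIT1 (-2.17), IFIT3 (-1.20), OAS1 (-1.12), IFI44 (-1.58) and ISG15 (-0.58), for the NF-kB genes CXCL8 (-0.83) and ICAM1 (-0.51), and for the cell cycle genes TYMS (-0.54), NDC80 (-0.60), DLGAP5 (-0.29) and CCNA2 (-0.25). Genes with levels below 1 FPKM, among them SERPINB2, MMP1, OAS1, IFI44 and MGARP, owe part of this value to the pseudocount. For MGARP, the olaparib mean was 16.8 times the siPARP1 mean in wild type. Its knockout means were 15.8 FPKM under olaparib and 1.11 FPKM under siPARP1, so a smaller rise in wild type was not seen in the ratio.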

How the results depend on the processing

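None of the 194 genes chosen by the rule or added to it reversed under any alternative, and 168 stayed on the same side of the threshold in all of them. Of 2868 values recomputed, 86 lost and 3 gained a call. These fell on 26 genes, of which 12 are described: PARP1, TRIM27, NAMPT, WEE1, ABCA1, HSPA5, BRCA1 (adjusted p = 0.0649 on transcript sums), CDKN1A, H3C6, TK1, RFC2 and EIF2AK2 (adjusted p = 0.0503 with no filter on low values, and 0.0545 for RFC2). In wild-type cells the count of higher genes ran from 3222 to 3309 and of lower genes from 3865 to 4028 without one library, and from 2427 to 4707 and from 3330 to 4782 under the other alternatives. In knockout cells the counts ran from 3110 to 3188 and from 4090 to 4295 without one library. The count of genotype differences, 563, was 330 in a fit of the compared libraries alone and ran from 363 to 473 without one library. Of those calls 52.0% were higher in wild type. The share was 66.1% with each library rescaled over nuclear annotated genes and 46.9% under median-of-ratios scaling, so the side with more calls depends on the scaling. With the replicate block, 3494 genes were higher and 4326 lower in wild-type cells, 3395 and 4496 in knockout cells, and 518 differed between genotypes, and of the 194 genes MKI67 (adjusted p = 0.0700), ENO2 (0.0512) and TIMP2 (0.0593), none of them described, lost their calls. Of 990 recomputed counts of list members, 962 stayed within 1.5 times. Fold changes of genes near 1 FPKM, among them CD24, H4C14, H2BC7, MGARP, IFI44 and, in knockout cells, SERPINB2, depend on the pseudocount. The unknown depth limits what can be said of such genes.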

Other observations

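Some genes took separate levels within a group. CDKN1A was at 57.8 FPKM in 1 wild-type olaparib library and 216 and 206 FPKM in the other 2, and at 135 FPKM in 1 siPARP1 library and 38.8 and 40.2 FPKM in the other 2. LASP1 was at 59.4, 62.8 and 236 FPKM in untreated knockout libraries, and MIR137 at 0.108, 2.94 and 0.127 FPKM in wild-type siPARP1 libraries. The cause was not tested.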
